A study of Mus musculus with 5 samples.

Results

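Replication initiation zones were described around the starts of 6 genes for pluripotency factors, Pou5f1, Nanog, Sox2, Klf4, Esrrb and Myc, in mouse embryonic stem cells. A zone was taken as a member when any part of it lay within 250 kb of a start, at the mm9 position given for each gene. This rule found 85 of the 35512 zones in the list, and 10525 zones lay on the 6 chromosomes concerned. The cells were CGR8, a mouse embryonic stem cell line grown in serum with leukaemia inhibitory factor and no feeder cells. Short nascent DNA strands of 0.5 to 2 kb, which form where replication begins, were freed of other DNA with lambda exonuclease, from which their RNA primer protects them. The 5 samples were 3 nascent strand preparations of separate cultures, 1 control of sonicated genomic DNA digested the same way, and 1 control whose primers had been removed with RNase A. The list combines the 3 preparations and gives a first and a last position for each zone. It holds no read count, so depth is unknown. Cultures and controls have no values of their own in it, so neither a spread over cultures nor the background in the controls is given here. Zones hold no expression values, so the cell type was not checked against markers.

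Replication of a mammalian chromosome starts at many places, and in any one cell only some of the potential origins of a region are used. Origins are known to be frequent near active promoters and in CpG-rich DNA. Pou5f1, also called Oct4, Sox2 and Nanog encode the transcription factors at the centre of the network that keeps embryonic stem cells undifferentiated. Klf4 and Esrrb encode further transcription factors of that network, Esrrb an orphan nuclear receptor. Myc encodes a transcription factor that drives growth and proliferation.

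Each start was compared with positions shifted along the same chromosome in steps of the interval's width, so that shifted intervals did not overlap. They were kept where the chromosome had zones on both sides of them. The share of shifted intervals with a zone, or with at least as many zones as the gene, is a description of where the gene stands on its chromosome and not a test. Shifted intervals are mostly not gene starts, and other gene starts were not analysed here, so nothing below is shown to be particular to pluripotency genes.

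Every one of the 6 starts had a zone within 5 kb, and 5 of them lay inside a zone. On the 6 chromosomes together, 16.9% of the shifted 10 kb intervals held any part of a zone and 5.56% of the shifted positions lay inside one. By chromosome the share of shifted intervals with a zone was 21.5% for Pou5f1, 14.8% for Nanog, 12.5% for Sox2, 20.8% for Klf4, 15.0% for Esrrb and 18.6% for Myc. Shares were higher when intervals in stretches over 500 kb without a zone were left out. They were then 26.8% for Pou5f1, 19.1% for Nanog, 15.8% for Sox2, 28.0% for Klf4 and 19.8% for Esrrb. For Myc this share is not given here. Nanog was the start outside a zone, and within 2 kb the count was 5 genes.

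The DNA just before the starts differed widely in base composition. It is shown for 3 genes as the 250 bases before the start, 5′ to 3′ on the strand of the gene, from RefSeq (GRCm38.p6) with CpG in capitals. They stand for the range among the genes: Klf4 had the most CpG, Esrrb the median number of all starts, and Nanog the fewest.
Klf4: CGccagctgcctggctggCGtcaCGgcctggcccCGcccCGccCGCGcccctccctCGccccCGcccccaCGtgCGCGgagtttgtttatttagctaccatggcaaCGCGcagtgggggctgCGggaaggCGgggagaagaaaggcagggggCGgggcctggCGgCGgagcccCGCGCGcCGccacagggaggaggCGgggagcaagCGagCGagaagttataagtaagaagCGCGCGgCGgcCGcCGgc
Esrrb: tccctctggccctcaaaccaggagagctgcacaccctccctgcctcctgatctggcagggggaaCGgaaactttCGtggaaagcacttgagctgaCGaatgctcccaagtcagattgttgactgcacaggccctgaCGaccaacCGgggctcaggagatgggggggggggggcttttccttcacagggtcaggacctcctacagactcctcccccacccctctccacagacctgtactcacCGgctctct
Nanog: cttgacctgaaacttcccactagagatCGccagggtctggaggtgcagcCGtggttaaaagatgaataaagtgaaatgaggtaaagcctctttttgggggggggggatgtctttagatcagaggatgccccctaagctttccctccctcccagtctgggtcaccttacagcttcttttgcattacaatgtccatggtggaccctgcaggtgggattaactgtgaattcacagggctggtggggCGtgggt

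The RefSeq promoter table matched 5 of the 6 genes, all but Myc, and the outermost start was taken where it gave 2, as for Pou5f1, Nanog and Esrrb. Which of the 2 corresponds to the mm9 position used for the zones was not determined, so for these genes the sequence is not tied to the zone at the start. Klf4 held 32 CpG in these 250 bases and Sox2 held 27. Pou5f1 held 8, Esrrb 6 and Nanog 3, against a median of 6 over the 32851 starts in the table (quartiles 2 and 16). At least as many CpG were found at 4.58% of all starts for Klf4 and at 8.56% for Sox2, but at 43.0% for Pou5f1, 50.4% for Esrrb and 71.0% for Nanog. The GC content was 74.0% for Klf4, 72.0% for Sox2, 62.0% for Pou5f1, 60.8% for Esrrb and 52.0% for Nanog, beside a median of 52.4%. At the second start listed, Pou5f1 had 6 CpG, Esrrb 3 and Nanog 2, so with either start these 3 genes had far fewer CpG than Klf4 and Sox2. The motif GGGG was present on both strands in all 5 genes. It was present on either strand at 83.1% of all starts, and the share of all starts with it on both strands is not given here. A run of 4 GGG separated by 1 to 7 N (any base, G included), the letter pattern of a G-quadruplex, was present before Pou5f1 and Sox2 on the gene's strand and before Klf4 on the other strand. It was not in this window of Nanog or Esrrb, and 16.6% of all starts had it on either strand. The letters describe the sequence only and do not show a structure or a site.

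The zone at Pou5f1 (start at 35643000 on chromosome 17) ran from 35641201 to 35647600, 6400 bp wide. It reached 1799 bp below the start and 4600 bp above it, towards the gene, which lies on the forward strand. The next zone at higher coordinates began 7.6 kb from the start, was also 6400 bp wide and stood outside the 5 kb limit. On the lower side the nearest zone was 34.6 kb away.

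Nanog (start at 122657500 on chromosome 6) had a zone of 2000 bp from 122661401 to 122663400. This zone began 3901 bp above the start, downstream on the forward strand, and no zone covered the start. The nearest zone on the upstream side ended 28.3 kb from the start and was 1000 bp wide. Of the zones of chromosome 6, 59.3% were at least as wide as the zone at Nanog.

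Sox2 (start at 34549000 on chromosome 3) lay near the middle of a zone from 34547001 to 34550800, 3800 bp wide. It was the widest zone within 250 kb of Sox2, and 17.6% of the zones of chromosome 3 were at least as wide. Its nearest neighbours were 57.2 kb away from the start on the lower side and 25.4 kb on the higher side.

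Klf4 (start at 55545000 on chromosome 4), on the reverse strand, lay near the middle of a zone of 5000 bp from 55542401 to 55547400. The nearest other zone was 16.2 kb from the start on the lower side, downstream of it, and the nearest upstream was 28.0 kb away. Of the zones of chromosome 4, 31.7% were at least as wide.

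Esrrb (start at 87702000 on chromosome 12) lay 800 bp from the upper end of a zone of 7800 bp, from 87695001 to 87702800. Most of this zone was upstream, since Esrrb is on the forward strand, and only 8.79% of the zones of chromosome 12 were as wide. The RefSeq table lists 2 starts for Esrrb, and zones were measured from the given position alone.

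Myc (start at 61817000 on chromosome 15) was the gene with 2 zones within 5 kb. A zone of 6400 bp from 61816001 to 61822400 covered the start, extending 5400 bp above it. A zone of 3200 bp from 61809001 to 61812200 ended 4800 bp below the start, only just inside the limit. Intervals with at least 2 zones made up 2.95% of the shifted intervals of chromosome 15. When zones were counted by their midpoint, or when the start was moved 1 kb higher, the second zone fell outside, and the shares were 13.8% and 18.5%.

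**Figure D1:**
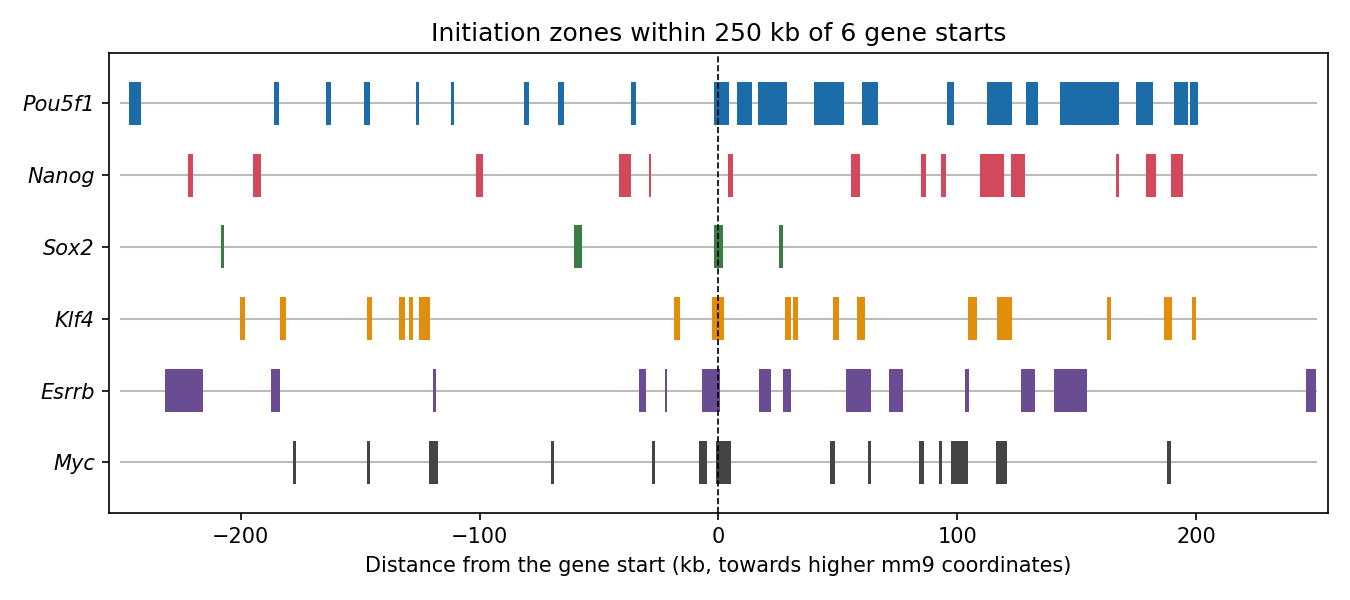
Each bar is 1 initiation zone drawn to scale, in a row per gene, against the distance from the gene start in kb towards higher mm9 coordinates, so that Klf4, on the reverse strand, is transcribed to the left. The dashed line at 0 crosses a zone in 5 of the 6 rows; Sox2 has 4 zones, and Pou5f1 has 22 with most of the covered length on the right.

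Measured by length and averaged over the 6 genes, zones covered more of the DNA within 5 kb of the starts than of any range farther out. Nanog was the exception among single genes, with 11.0% within 5 kb, 12.0% at 25 to 50 kb and 11.2% at 100 to 250 kb. Beyond 5 kb the mean changed little with distance, but single genes did. Pou5f1 went from 37.0% at 5 to 25 kb to 16.6% at 50 to 100 kb, and Nanog rose from 2.25% to 9.3%. Zones covered 47.2% of the first 5 kb to either side on average over the 6 genes, from 11.0% at Nanog to 64.0% at Pou5f1. The same distance in shifted intervals was covered to 5.28%, and each of the 6 genes lay above the mean of its own shifted intervals. For these means, in every range, positions were shifted in steps of 500 kb. Among intervals shifted in steps of 10 kb, those covered at least as much made up 2.02% for Sox2 and 2.03% for Esrrb. The share was 4.13% for Myc, 4.59% for Pou5f1, 6.35% for Klf4 and 11.4% for Nanog.

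In the outer ranges the means over the genes were 12.5% at 5 to 25 kb, 13.3% at 25 to 50 kb, 9.58% at 50 to 100 kb and 11.2% at 100 to 250 kb, against 5.64% to 5.75% in shifted intervals. The number of genes above their own shifted mean was 3, 5, 5 and 4 of the 6 in these ranges, so only the innermost of the 5 ranges had all 6 above. Among the outer ranges the genes differed most at 5 to 25 kb. There Pou5f1 had 37.0%, Esrrb 21.0%, Myc 8.5%, Klf4 6.5%, Nanog 2.25% and Sox2 0.0%. From 100 to 250 kb coverage was lowest at Sox2 with 0.4% and highest at Pou5f1 with 23.7%.

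**Figure D2:**
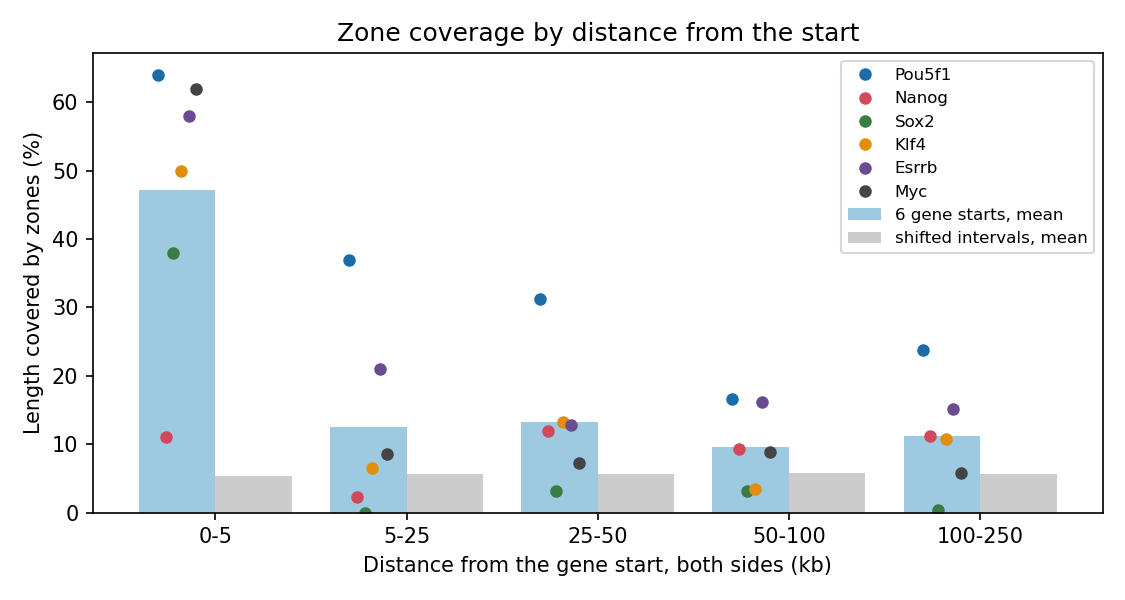
The percent of DNA length covered by zones is plotted for 5 ranges of distance from the start, both sides together. Blue bars are means over the 6 genes, points are the genes and grey bars are means over the shifted intervals; the genes average 47.2% in the innermost range and 9.58% to 13.3% in the outer 4.

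Within 50 kb the starts had 2 to 5 zones, 24 in all. Pou5f1, Klf4 and Esrrb had 5 each, Myc 4, Nanog 3 and Sox2 2, and the median of the shifted intervals was 1 zone on each of the 6 chromosomes. All 6 genes were thus above the median of their chromosome. Shifted intervals with at least as many zones made up 5.26% for Esrrb, 12.1% for Pou5f1, 12.9% for Klf4, 13.7% for Myc, 18.5% for Nanog and 28.6% for Sox2. The exact Poisson interval (95%, counting error only) ran from 1.62 to 11.7 for a count of 5. For the 2 zones at Sox2 it ran from 0.242 to 7.22. These intervals overlapped, and the counts were not tested against each other. With zones under 2 kb apart joined, the shares were 3.31% for Esrrb, 7.42% for Pou5f1 and 11.1% for Myc. Those for Klf4, Nanog and Sox2 were 16.6%, 16.8% and 28.3%. By covered length they were 4.66% for Esrrb, 6.87% for Pou5f1, 14.8% for Nanog, 15.7% for Sox2 and Myc, and 18.3% for Klf4. Against all autosomes they were 8.07% for Pou5f1, 8.09% for Klf4, 8.15% for Esrrb, 13.5% for Myc, 22.7% for Nanog and 37.1% for Sox2. Leaving out intervals in stretches over 500 kb without a zone raised every gene's share, to between 6.73% for Esrrb and 35.1% for Sox2.

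Within 250 kb the genes spread further apart, in the order Pou5f1 with 22 zones, Klf4 with 17, Nanog, Esrrb and Myc with 14 each, and Sox2 with 4. The 95% Poisson intervals were 13.8 to 33.3 for Pou5f1, 9.9 to 27.2 for Klf4, 7.65 to 23.5 for a count of 14 and 1.09 to 10.2 for Sox2. Only the intervals of Pou5f1 and Sox2 did not overlap, and how often those of 2 arbitrary places would not overlap is not given here. Counts in shifted intervals also spread widely, with quartiles of 2 and 13 and a maximum of 35 zones on chromosome 17. On chromosome 3 the quartiles were 2 and 8 and the maximum 24. An overlap does not show that 2 counts are alike, and the genes were not tested against each other. The medians of shifted intervals were 6 zones for Pou5f1, 5 for Klf4 and Myc, and 4 for Nanog, Esrrb and Sox2. Sox2 stood at the median of chromosome 3 and the other 5 genes above theirs. At least as many zones were found in 9.34% of the shifted intervals for Pou5f1, 11.5% for Esrrb, 12.0% for Nanog, 17.7% for Myc, 18.5% for Klf4 and 56.8% for Sox2. With zones under 2 kb apart joined, which left 21 at Pou5f1, its share was 3.3%, past the 95th percentile of the joined intervals. Against intervals of all autosomes the share was 5.43% for Pou5f1, 11.1% for Klf4, 16.8% for Nanog, Esrrb and Myc, and 61.6% for Sox2. By covered length it was 5.56% for Esrrb, 11.5% for Pou5f1, 12.0% for Nanog, 22.7% for Myc, 25.4% for Klf4 and 37.3% for Sox2. Leaving out intervals in stretches over 500 kb without a zone raised every gene's share, to between 10.3% for Pou5f1 and 62.7% for Sox2. One of the 22 zones at Pou5f1 reached into the interval by a single base at its lower edge.

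**Figure D3:**
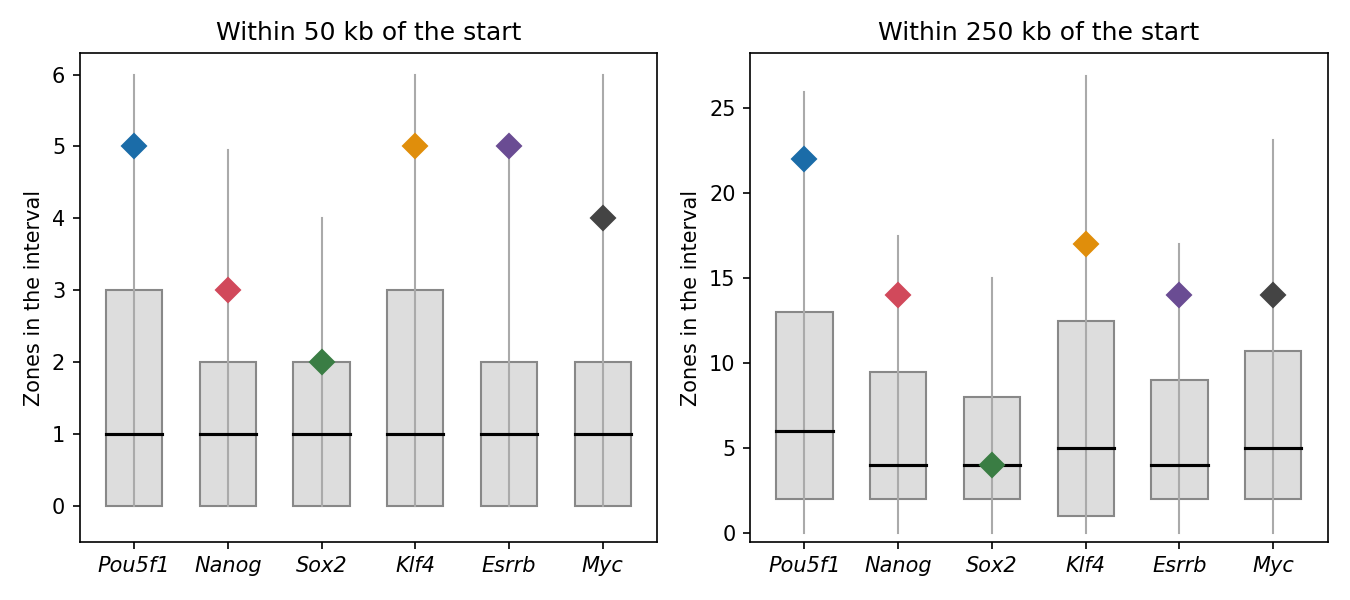
Diamonds give the number of zones within 50 kb (left) and 250 kb (right) of each gene start. Boxes span the quartiles and black lines mark the median of the intervals shifted along the same chromosome, and the thin lines end at their 95th percentile; with the zones as deposited no diamond lies above that line's end (with zones under 2 kb apart joined, not drawn, Pou5f1 does at 250 kb and Esrrb at 50 kb), and Sox2 lies on the median of 4 at 250 kb.

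How a gene stood depended on whether it was set against the whole chromosome or against its surroundings. When only intervals shifted by up to 10 Mb were used (40 per gene at 250 kb), Pou5f1 and Nanog stood lower: 30.0% of these intervals had at least as many zones as Pou5f1 and 37.5% as many as Nanog, with local medians of 11.5 and 10 zones. Myc stood higher: 0 of the 40 intervals had 14 zones, and their median was 4. Klf4 was at 12.5% with a local median of 5, Esrrb at 17.5% with 6, and Sox2 at 62.5% with 4. The same held at 50 kb, with 26.5% for Pou5f1, 38.0% for Nanog and 2.0% for Myc, and Klf4 was at 6.5% there. Within 5 kb, 0.25% of the local intervals held at least 2 zones, as Myc did. Close to the start, 34.0% of the local 10 kb intervals around Pou5f1 and 25.3% of those around Nanog held a zone, so a zone near these starts sets them less apart from their surroundings than from their chromosomes.

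The number of neighbouring genes also differed between the 6 genes. In GRCm38.p6, 18 other protein-coding genes lay within 250 kb of Pou5f1, next to H2-Q10 and Tcf19, and 12 lay within that distance of Nanog, whose neighbours are Dppa3 and Slc2a3. Esrrb, between Gpatch2l and Vash1, had 5, and Klf4, between Rad23b and Actl7b, had 1. Sox2, between Dnajc19 and Atp11b, and Myc, between A1bg and Gsdmc, had 0. Set beside these numbers, the zones counted in mm9 were 22 at Pou5f1, 14 at Nanog, 14 at Esrrb, 17 at Klf4, 4 at Sox2 and 14 at Myc. Pou5f1 had most of both, while Sox2 and Myc had as few neighbours and differed in zones. The 250 kb of the 2 builds need not hold the same DNA, and no zone was assigned to a neighbour.

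The zones at Pou5f1 were unevenly placed. On the higher side they covered 40.2% of the 250 kb, with 11 zones of a median of 6400 bp, and on the lower side 9.6%, with 10 zones of a median of 2200 bp. The widest zone near any of the genes was on that higher side, 24.6 kb wide, from 35786201 to 35810800. Nanog had 14.6% covered on the higher side and 5.76% on the lower, Esrrb 20.0% and 13.0%, Klf4 11.6% and 8.4%, Myc 10.3% and 5.36%, and Sox2 1.36% and 2.56%. Of the 4 zones at Sox2, only the narrow zone at 25.4 kb lay on the higher side, and beyond it the remaining 223 kb of the interval held none.

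Zone width divided the genes in another way. The median width of the 85 zones was 3200 bp, and the quartiles were 2000 and 5400 bp; the median for all zones of the 6 chromosomes was 2600 bp. Medians were above that of the chromosome for 4 genes: 5200 bp at Pou5f1 against 3000 bp, 5200 bp at Esrrb against 2400 bp, 3100 bp at Nanog against 2200 bp and 2400 bp at Sox2 against 1800 bp. They were below it for Klf4, with 2600 bp against 3200 bp, and for Myc, with 2000 bp against 3000 bp. Zones of 10 kb or more numbered 5 at Pou5f1, 3 at Esrrb and 1 at Nanog, and 0 at Sox2, Klf4 and Myc. Their share was 10.6% of the 85 zones, beside 7.65% on the 6 chromosomes. One of the 5 at Pou5f1, 16400 bp wide, was the zone that reached into the interval by a single base. Membership by any overlap takes in wide zones more readily than narrow ones, which can raise this share.

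The 7 zones within 5 kb of a start had a median width of 5000 bp (range 2000 to 7800 bp), and the other 78 had a median of 2800 bp. A position is more often covered by a wide zone than by a narrow one, so the zones over the starts are better set against the width of the zone around a typical covered base. The median of this width over covered bases was 7200 bp on chromosomes 17 and 4, 3400 bp on chromosome 3, 5000 bp on chromosome 12 and 7400 bp on chromosome 15. The zone over Esrrb (7800 bp) and the zone over Sox2 (3800 bp) were above this value, and those over Pou5f1 (6400 bp), Klf4 (5000 bp) and Myc (6400 bp) were below it.

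**Figure D4:**
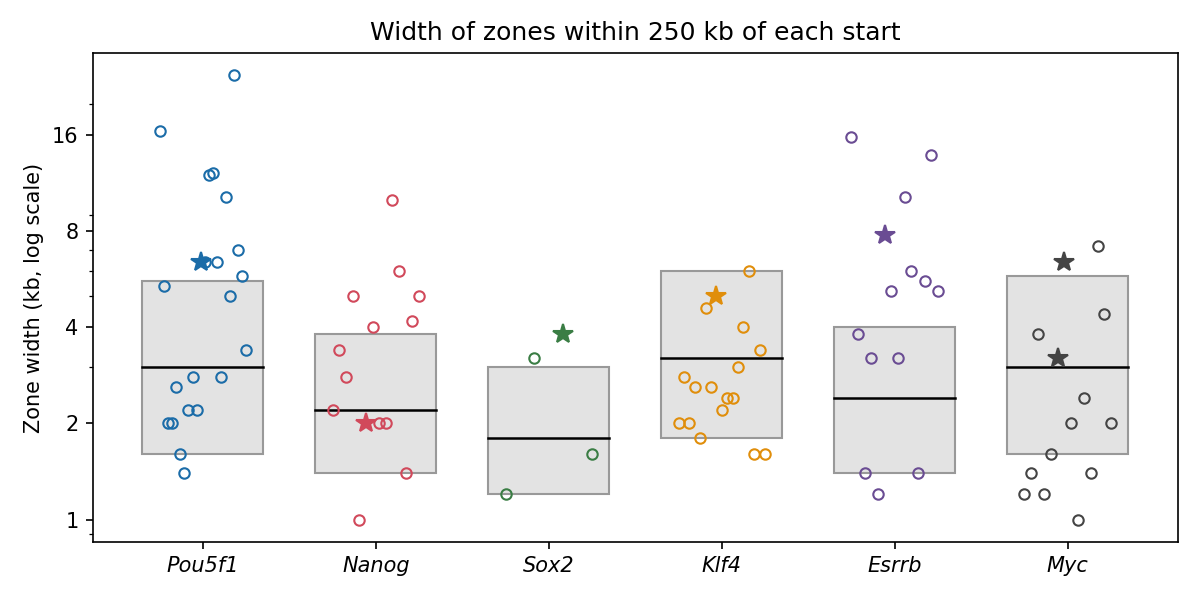
Each point is the width of 1 zone in kb on a log scale, with stars for zones within 5 kb of the start and circles for the others. Grey boxes and black lines give the quartiles and the median of all zones of the same chromosome; most circles of Myc and Klf4 lie below the line and most points of Esrrb above it.

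Spacing was also gene by gene. Of the 85 zones, 52.9% had another zone within 10 kb. The share was 64.7% at Klf4 (11 of 17 zones) against 56.2% on chromosome 4, 59.1% at Pou5f1 (13 of 22) against 54.5%, and 57.1% at both Nanog and Esrrb (8 of 14 each) against 39.7% and 38.5%. It was 35.7% at Myc (5 of 14) against 52.0%, and 0 of the 4 zones at Sox2 had such a neighbour, against 32.8% on chromosome 3. The median distance to the nearest zone was 39400 bp at Sox2 against 21000 bp on its chromosome, and 14200 bp at Myc against 9400 bp. It was 7500 bp at Pou5f1 against 8600 bp and 8400 bp at Klf4 against 7800 bp. Nanog had 7400 bp against 15400 bp, and Esrrb 8200 bp against 15800 bp.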

How the data were processed

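The authors deposited the zones of the 3 nascent strand replicates as 1 combined list, with chromosome, first and last position as its 3 columns. Per the submitters' processing notes, CASAVA 1.8, SICER and build mm9 were used; settings and the use of the controls are not given in the sources used here. Starts and widths are multiples of 200 bp, so a zone's edges are no finer than that. Positions are printed counting from 1, with both ends included. Gene starts are mm9 positions rounded to 500 bp.

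Zones, covered length and shifted intervals were counted in Python 3.11.15 with numpy 2.4.6, scipy 1.17.1 and pandas 2.3.3, and the counting was checked on 3268 simulated intervals against a count base by base. The members and lists were chosen with earlier results of these data known. The 6 genes and, as neighbours, the nearest protein-coding gene on each side are named; zones are given with positions where they lay within 5 kb, nearest on each side or widest. No test was made, because the pooled list has no spread between samples. RefSeq tables of GRCm38.p6 gave names, neighbours and promoter sequences. These are set beside the mm9 zones gene by gene, and no position of that build was compared with a zone's position.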

Additional observations from a re-analysis of the deposited data

How the results depend on the processing

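Alternatives were counting by midpoint, leaving out zones under 1 kb, joining zones under 2 kb apart, moving the starts by 1 kb, overlapping shifts in steps of 10 kb, local shifts, intervals of all autosomes, leaving out intervals in stretches over 500 kb without a zone, and covered length. Of the 147 alternatives for the counts, median widths, spacing and median positions of the 6 genes, 13 could not change a value, because no zone near the genes was under 1 kb. Of the other 134, 133 stayed within their limits (a factor of 1.5, the 95% interval of a median or share, or 1 SD over the genes), which are wide for so few zones. The exception was the median share of shifted intervals at or above the gene within 5 kb, which was 14.9% by zone number and 4.36% by covered length. Some of the 133 were fixed in advance too, so their number overstates what was checked. No zones near Nanog, Sox2, Esrrb or Myc were under 2 kb apart, so joining could not alter their counts, widths or spacing. With all 6 genes having a zone within 5 kb, neither joining nor widening to 10 kb could lower that count. The shares of single genes, with narrow binomial intervals, moved in 78 of 180 alternatives, 17 of 18 under local shifts. No paired analysis was possible because replicates share 1 combined list, and for the same reason no replicate could be left out. How many weak zones went uncalled cannot be told without depth.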
